A study of Bos grunniens with 24 samples.

Results

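RNA sequencing of yak calf jejunum (Bos grunniens) was compared between 8 libraries of untreated calves (CON-1 to CON-8) and 8 libraries of calves challenged with enterotoxigenic Escherichia coli (ETEC-1 to ETEC-8). These 16 of the 24 libraries were taken by their titles, and every one of the 639 listed genes was examined in them. The other 8 libraries, from calves pretreated with Pediococcus pentosaceus NQ0729 before the challenge, entered 1 alternative fit. Both groups are Bos grunniens jejunal tissue, and the labels name neither the individual animals nor their age, sex, dose or time after challenge, nor the place along the jejunum. Where nothing says that the libraries come from separate calves, p-values measure only the spread between these libraries.

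Enterotoxigenic Escherichia coli attaches to the small intestinal lining and releases toxins that drive chloride and water into the lumen, which causes watery diarrhoea in young calves. Absorption in the jejunum rests on villus enterocytes, whose brush border carries peptidases, amino acid and sugar carriers and ion exchangers. Uptake of bile acids, by SLC10A2 and the carrier FABP6, is known from other mammals as a function of the ileum, further down the gut.

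Levels are given in FPKM, which scales the fragments on a gene to its length and to the size of the library, and differences as log2 fold changes of ETEC against CON from edgeR's quasi-likelihood test on counts. A gene is said to have risen or fallen where its Benjamini-Hochberg adjusted p over all 507 tested genes was below 0.05. In whole tissue, fewer cells of a type and less RNA per cell cannot be told apart. None of 19 general epithelial markers is among the listed genes, so the tissue label could be read only from intestinal genes that are listed, such as MTTP at 19.4 FPKM or more in all 16 libraries.

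The libraries had 299776 to 826249 counts over the listed genes in CON and 466708 to 863801 in ETEC, at relative depths of 0.718 to 1.10 and 0.848 to 1.501. Of the 16 libraries, 7 lay close to a weighted sum of 2 others of their own group. CON-1 was fitted by CON-5 and CON-6 at weights of 0.511 and 0.509, and ETEC-4 by ETEC-7 and ETEC-8 at 0.501 and 0.501. CON-2 and CON-3 as well as ETEC-1 to ETEC-3 were fitted in the same way, and the residual after 2 libraries was 0.245 to 0.652 of that after 1 in these 7, against 0.823 to 1 in the other 9. The 9 others are CON-4 to CON-8 and ETEC-5 to ETEC-8, and adjusted p-values over these 9 are given beside those over 16 for the genes the results turn on. Whether the 7 are merged or pooled libraries is not given in the sources used here. If they are, the 16 libraries are not 16 independent replicates, and the errors and p-values over 16 are too small. The Y chromosome also differed with the groups. Of 8 listed loci on it, 7 were at 0 counts in all CON libraries and in ETEC-8, with 7138 to 10136 counts in total in each of the other 7 ETEC libraries. Challenge and this difference cannot be told apart, and ETEC-8, the ETEC library without these counts, is a single library. At 86 loci outside the Y chromosome the other 7 ETEC libraries all lay beyond the 8 CON libraries. ETEC-8 lay beyond them on the same side at 72 of these and within the CON range at 13. ETEC-3 and ETEC-4, among those 7, are fitted in part by ETEC-8, so ETEC-8 is not independent of how the 86 were chosen.

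Over the 16 libraries, 412 of 507 tested genes (81.3%) passed the test, 164 (32.3%) higher and 248 (48.9%) lower in ETEC. The table holds genes that the authors had called in at least 1 of their comparisons, so this share is the background against which each group of genes is read. Because the genes were chosen from these same libraries, the adjusted p-values do not hold the rate of false calls at the threshold. With 81.3% of all tested genes called, a list with most of its members called is not set apart by that. Over the 9 libraries, 11 of 500 genes (2.20%) passed, 10 higher (2.00%) and 1 lower (0.200%), and 171 had an unadjusted p below 0.05. DESeq2 called 86 genes over the same 9 libraries and limma voom 47. Of genes with a symbol PAPPA2 alone passed in edgeR over the 9, and the next had an adjusted p of 0.0921. All 401 called genes with a value in both fits kept their direction over the 9, and the size of the log2 fold change shifted by a median of -0.12. The 9 are part of the 16, and the libraries left out lie close to sums of others of their group. Kept direction was thus largely given beforehand and is not separate support. Scaling by TMM in place of relative depth raised log2 fold changes by a median of 0.35, and the 27 genes whose sign it changed were all among those not called over 16 libraries. TMM called 364 genes (71.8%), 174 higher (34.3%) and 190 lower (37.5%). The authors' deposited table calls 467 of the 639 genes (73.1%), and 356 of them were called in the same direction here, with 0 in the opposite direction. Both sets of calls rest on the same libraries, so their match is not separate support.

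At most of the genes that differed, some CON libraries reached the ETEC levels. Of the 248 genes lower in ETEC, CON-8 lay at or below the highest ETEC library at 155 (62.5%), CON-4 at 139 and CON-7 at 134. CON-1, CON-2, CON-3, CON-5 and CON-6 did so at 30 to 61. All 8 CON libraries lay above all 8 ETEC libraries at 31 of the 248, and at 86 of them 3 CON libraries reached the ETEC range. Of the 164 genes higher in ETEC, CON-4 reached the ETEC range at 91, CON-7 at 86 and CON-6 at 29, and 34 showed no overlap. Over all 639 listed genes, 39 (6.10%) had all ETEC libraries above all CON libraries and 33 (5.16%) below.

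**Figure D1:**
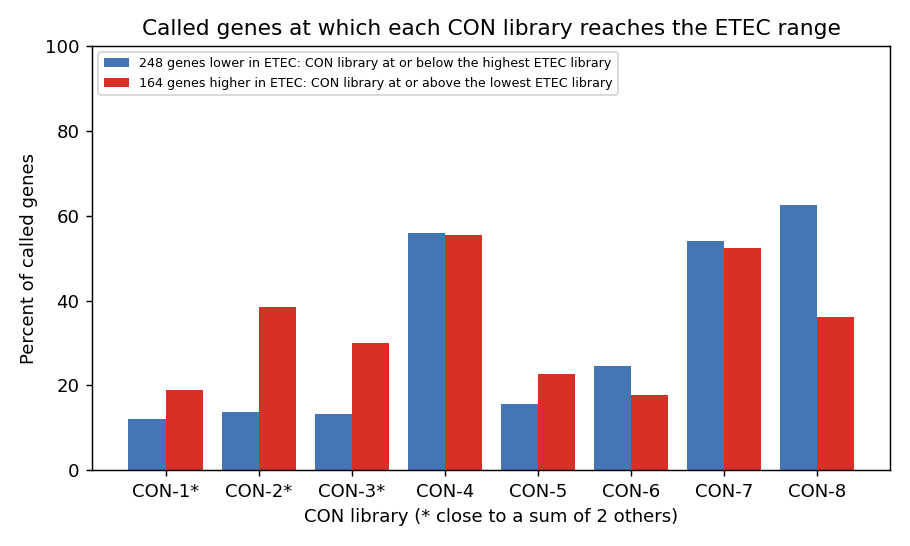
Percent of genes called lower (blue) and higher (red) in ETEC at which each CON library reached the range of the ETEC libraries. Asterisks mark libraries close to a sum of 2 others. CON-4 and CON-7 reached the ETEC range at over 50% of the genes in both directions, whereas CON-1 did so at 12.1% of the lower and 18.9% of the higher genes.

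Brush border and transport genes gave the largest falls, and they fell through 5 of the 8 CON libraries. ANPEP, aminopeptidase N, which trims peptides at the brush border (ENSBGRG00000006001; chromosome 17, 21793317 to 21809835, build not given in the sources used here), stood at 658, 311, 352, 8.71, 716, 490, 9.71 and 9.56 FPKM in CON-1 to CON-8. In ETEC-1 to ETEC-8 it stood at 10.5, 11.5, 11.98, 13.6, 7.53, 11.4, 16.2 and 12.9 FPKM. CON-4, CON-7 and CON-8 thus lay within the ETEC range and the other 5 far above it, so the groups overlapped. Of these 5, CON-1, CON-2 and CON-3 are close to sums, each with CON-5 or CON-6 as a part. Among CON libraries not close to a sum, CON-5 and CON-6 were high and CON-4, CON-7 and CON-8 low. The 5 are thus not 5 independent libraries, here and wherever they are named below. For ANPEP the group difference was as follows. The log2 fold change was -4.74 ± 0.86 (SE), with adjusted p = 0.000442 in edgeR over 16 libraries and 0.124 over 9.

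The same 5 CON libraries were high for the carriers of amino acids. SLC6A19, the main sodium-coupled carrier of neutral amino acids, ranged in CON from 0.884 over a median of 32.9 to 83.2 FPKM, and in ETEC from 0.495 over 0.892 to 1.87. Values inside the ETEC range, 0.884 to 1.08 FPKM, came from CON-4, CON-7 and CON-8. SLC7A9, the light chain of the cystine and dibasic amino acid exchanger, had a CON median of 6.72 FPKM with a highest value of 48.1 in CON-5, and at most 0.133 FPKM in ETEC. Its log2 fold change of -7.36 ± 1.19 (SE) was the largest fall among the named genes (edgeR adjusted p = 0.000226 over 16 libraries, 0.111 over 9) and came to -6.72 without CON-5. Of 8 listed members of the amino acid and peptide transport list, 5 fell, 1 rose and 2 did not pass, where 81.3% of all tested genes passed. SLC15A1, the peptide carrier of the enterocyte, was one that did not pass, at a log2 fold change of -0.27 (edgeR adjusted p = 0.206).

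Among 9 listed brush border peptidases and hydrolases, 5 fell, 2 rose, 1 did not pass the test and 1 did not pass the filter on low counts. For comparison, 48.9% of all tested genes fell and 32.3% rose. ENPEP, aminopeptidase A, stood at 3.03 to 117 FPKM in CON (median 30.4) and at 2.17 to 3.29 in ETEC (median 2.61), a log2 fold change of -3.85 ± 0.69 (SE; edgeR adjusted p = 0.000442 over 16 libraries, 0.124 over 9). CON-7 and CON-8 lay within the ETEC range of ENPEP and CON-4 lay just above it, at 3.76 FPKM. ACE, the angiotensin-converting dipeptidase, fell by 2.08 on the log2 scale (edgeR adjusted p = 0.000774 over 16 libraries, 0.139 over 9). The 2 members that rose were ENPP3 and ENPP7. ENPP7, the alkaline sphingomyelinase that digests dietary and biliary sphingomyelin, rose by 1.28 on the log2 scale (edgeR adjusted p = 0.0162 over 16 libraries, 0.158 over 9).

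The ion, acid-base and water transport list had 7 listed members, of which 6 were tested and 1 did not pass the filter on low counts. All 6 fell, beside 48.9% of all tested genes. SLC26A3, the chloride and bicarbonate exchanger through which the gut takes up chloride, ranged from 1.04 to 46.9 FPKM in CON (median 21.1) and from 0.897 to 1.82 in ETEC (median 1.47). The 3 CON libraries within the ETEC range were again CON-4, CON-7 and CON-8, at 1.04 to 1.36 FPKM, and the other 5 stood at 14.5 or more. Its log2 fold change was -3.96 ± 0.75 (SE; edgeR adjusted p = 0.000544 over 16 libraries, 0.130 over 9). The carbonic anhydrase CA12 had a CON median of 1.61 and an ETEC median of 0.277 FPKM (edgeR adjusted p = 0.000621 over 16 libraries, 0.133 over 9), and the sodium channel subunit SCNN1B, the basolateral bicarbonate carrier SLC4A4 and the scaffold PDZK1 fell by 1.62, 0.83 and 0.55 on the log2 scale. With TMM scaling 4 of the 6 fell, without SLC4A4 and PDZK1.

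Carriers of vitamins, dicarboxylates and sugars moved in both directions. SLC23A1, the intestinal vitamin C carrier, ranged from 3.59 to 40.7 FPKM in CON (median 18.2) and from 3.09 to 6.21 in ETEC (median 4.10), with CON-4, CON-7 and CON-8 inside the ETEC range (log2 fold change -2.11, edgeR adjusted p = 0.00174 over 16 libraries and 0.141 over 9). SLC5A11, a sodium-coupled inositol and glucose carrier, fell by 4.52 on the log2 scale from a CON median of 1.79 FPKM. SLC13A2, which takes up citrate and succinate, went the other way, at 5.21 to 15.5 FPKM in CON (median 11.5) and 18.4 to 44.3 in ETEC (median 32.1). All 8 ETEC libraries of SLC13A2 lay above all 8 CON libraries, and its log2 fold change was 1.53 ± 0.26 (SE; edgeR adjusted p = 0.000299 over 16 libraries, 0.111 over 9). SLC46A1, the proton-coupled folate carrier, rose by 1.27 on the log2 scale (edgeR adjusted p = 0.00823 over 16 libraries, 0.184 over 9).

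Bile acid uptake genes fell with a narrower set of high CON libraries. FABP6, the bile acid binding protein of enterocytes (ENSBGRG00000017725; chromosome 8, 78209335 to 78217992), stood at 480, 378, 13.2, 0.890, 849, 13.7, 2.76 and 2.38 FPKM in CON-1 to CON-8 and at 0.912 to 4.39 in ETEC (median 2.58). CON-5 and the 2 libraries fitted with it, CON-1 and CON-2, were highest, while CON-4 was below every ETEC library. The log2 fold change was -6.46 ± 1.33 (SE; edgeR adjusted p = 0.000834 over 16 libraries, 0.126 over 9), and -5.68 without CON-5. SLC10A2, the sodium-coupled bile acid carrier, followed the same order, with 83.0 FPKM in CON-5, 38.6 in CON-1, 37.1 in CON-2 and at most 3.90 in the other 5 CON libraries, against 0.532 to 0.874 in ETEC (log2 fold change -4.94, -4.14 without CON-5; edgeR adjusted p = 0.000826 over 16 libraries, 0.129 over 9). TMIGD1, an adhesion protein of the enterocyte brush border, was likewise at 76.3 FPKM in CON-5 and at most 0.285 in ETEC (log2 fold change -7.28, -6.43 without CON-5). Over the 9 libraries TMIGD1 did not pass the filter on low counts. SULT2A1, which sulfates bile acids and steroids, rose by 1.19 on the log2 scale (edgeR adjusted p = 0.0171 over 16 libraries, 0.186 over 9).

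**Figure D2:**
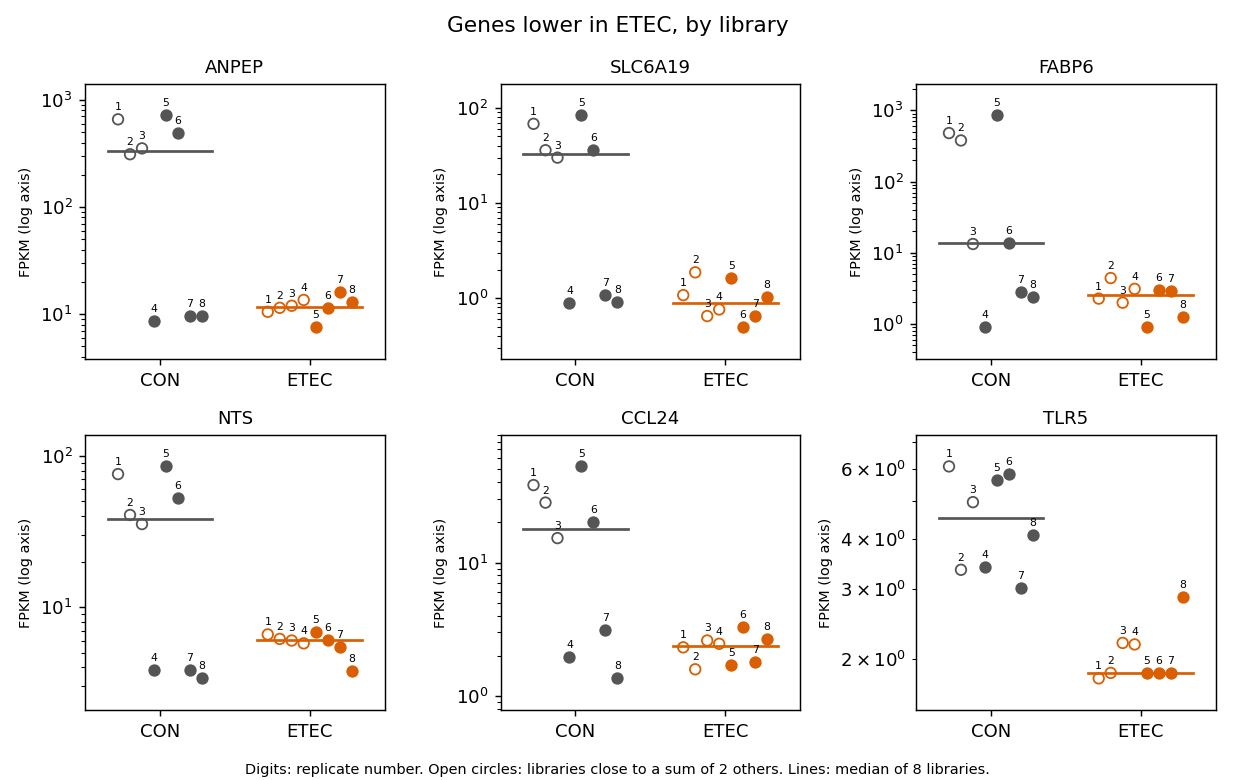
FPKM by library on log axes for 6 genes lower in ETEC, with CON in grey and ETEC in orange. Lines mark medians of 8 libraries. CON-4, CON-7 and CON-8 sit among the ETEC libraries for ANPEP and SLC6A19. For CCL24, CON-4 and CON-7 do so and CON-8 lies below them. All CON libraries of TLR5 lie above all ETEC libraries.

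Transcription factors that pattern the gut along its length also differed. OSR2, a zinc finger factor, was low in CON-4, CON-7 and CON-8, at 0.110 to 0.252 FPKM, and did not pass the filter on low counts. It had a CON median of 27.6 and a highest ETEC value of 0.167 FPKM. HOXB6 differed in every library, at 5.81 to 16.1 FPKM in CON (median 7.78) and 3.02 to 4.87 in ETEC (median 3.58), a fall of 1.21 ± 0.24 (SE) on the log2 scale (edgeR adjusted p = 0.00062 over 16 libraries, 0.133 over 9, and 0.103 with the pretreated libraries in the fit). ONECUT2, a factor of the upper small intestine in mouse, rose by 1.37 (edgeR adjusted p = 0.0221 over 16 libraries, 0.305 over 9, and 0.0677 with the pretreated libraries in the fit). These genes stand beside the transport genes as measured, and their part in the falls was not tested.

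Both listed enteroendocrine genes changed, in opposite directions, where 81.3% of all tested genes passed. CCK, the hormone that releases bile and pancreatic enzymes (ENSBGRG00000018878; chromosome 22, 51723960 to 51732717), stood at 0.344, 0.768, 0.469, 0.981, 0.469, 0.302, 0.676 and 0.508 FPKM in CON-1 to CON-8 and at 3.24, 3.08, 2.41, 1.84, 4.55, 2.39, 2.14 and 1.03 in ETEC-1 to ETEC-8. No ETEC library of CCK fell within the CON range, although ETEC-8 stood close to CON-4 (log2 fold change 2.19 ± 0.32 (SE), edgeR adjusted p = 8.46e-05 over 16 libraries and 0.0921 over 9). NTS, the neurotensin gene of the lower small intestine, was at 3.39 to 85.1 FPKM in CON (median 38.0) and 3.79 to 6.84 in ETEC (median 6.03). CON-4, CON-7 and CON-8, at 3.39 to 3.86 FPKM, lay at the low end of the ETEC range or below it, and the other 5 CON libraries stood at 35.4 FPKM or more (log2 fold change -2.69, edgeR adjusted p = 0.00151 over 16 libraries, 0.139 over 9). In limma voom over the 9 libraries the direction of NTS turned (adjusted p = 0.80). A locus without a symbol whose protein match is secretin, the duodenal hormone that calls for bicarbonate, rose by 1.82 on the log2 scale, from a median of 0.768 to 3.11 FPKM (edgeR adjusted p = 0.000857 over 16 libraries, 0.139 over 9).

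Genes that package and take up dietary lipid and cobalamin were higher in ETEC. MTTP, which loads lipid onto nascent chylomicrons, ranged from 19.4 to 48.5 FPKM in CON (median 36.9) and from 59.5 to 77.4 in ETEC (median 69.2). All 8 ETEC libraries lay above all CON libraries, at a log2 fold change of 1.01 ± 0.22 (SE; edgeR adjusted p = 0.00123 over 16 libraries, 0.139 over 9). Both loci whose protein match is apolipoprotein B, the scaffold of the chylomicron, rose by 1.03 and 1.00. All 6 loci matched to cubilin, the receptor for the complex of cobalamin and intrinsic factor, rose by 0.96 to 1.49, and they follow each other on chromosome 12 between 21922875 and 22202717. These loci without a symbol may be pieces of 1 gene and are not separate evidence, and their groups were chosen after their values were seen. Rises made up 32.3% of all tested genes.

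Of 3 listed goblet cell, mucin and lectin genes, 1 rose, beside 32.3% of all tested genes. TFF1, a trefoil peptide that stabilises mucus, was at 0 to 2.99 FPKM in CON (median 1.42) and 1.65 to 6.58 in ETEC (median 3.42), with overlap (log2 fold change 1.40, edgeR adjusted p = 0.0191 over 16 libraries, 0.202 over 9, and 0.0509 with the pretreated libraries in the fit). B3GNT6 and ITLN2 did not pass, at log2 fold changes of 0.06 and -1.03. Both loci matched to mucin-13, a membrane mucin of the enterocyte surface, rose. The shorter of them (ENSBGRG00000011810) was at 9.18 to 32.6 FPKM in CON and 33.8 to 111 in ETEC without overlap (log2 fold change 1.72 ± 0.31 (SE), edgeR adjusted p = 0.000442 over 16 libraries and 0.115 over 9). Both loci matched to DMBT1, a secreted scavenger glycoprotein of the mucosa that binds bacteria, rose by 1.34 and 1.24. The loci matched to mucin-13 and to DMBT1 were also grouped after their values were seen.

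Both listed genes of the tryptophan, kynurenine and NAD list rose, as did the carrier SLC37A2, beside 32.3% of all tested genes. SLC37A2, a sugar phosphate carrier of the endoplasmic reticulum, stood at 8.31 to 49.6 FPKM in CON (median 24.2) and 49.99 to 99.9 in ETEC (median 76.0), without overlap (log2 fold change 1.62 ± 0.35 (SE), edgeR adjusted p = 0.00112 over 16 libraries, 0.133 over 9). ALDH8A1, the aldehyde dehydrogenase of the kynurenine route, was at 0.0250 to 1.54 FPKM in CON and 1.56 to 4.31 in ETEC. Its groups did not overlap, although CON-4 at 1.54 and ETEC-2 at 1.56 FPKM were nearly level. QPRT, which feeds the same route into NAD synthesis, rose by 1.11 on the log2 scale, with CON-6 at 22.7 and CON-7 at 28.6 FPKM inside the ETEC range of 20.8 to 50.2. Over the 9 libraries the adjusted p was 0.161 for ALDH8A1 and 0.151 for QPRT.

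Both listed purine enzymes rose, beside 32.3% of all tested genes. ADA, adenosine deaminase, which converts adenosine to inosine, was at 8.28 to 41.5 FPKM in CON (median 12.8) and 14.2 to 73.8 in ETEC (median 52.1). CON-7 at 41.5 and ETEC-7 at 14.2 FPKM were the libraries furthest from their groups (log2 fold change 1.61, edgeR adjusted p = 0.00218 over 16 libraries, 0.146 over 9, and 0.0506 with the pretreated libraries in the fit). ENPP3, an ectoenzyme that cleaves extracellular nucleotides, was at 4.22 to 90.8 FPKM in CON and 92.7 to 141 in ETEC. CON-1, CON-5 and CON-6 stood at 10.3, 4.22 and 8.21 FPKM and the other 5 CON libraries at 43.7 or more (log2 fold change 1.30, edgeR adjusted p = 0.0266 over 16 libraries, 0.210 over 9, and 0.0706 with the pretreated libraries in the fit).

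SDSL, a serine dehydratase-like enzyme, showed the same 3 CON libraries near 0. It stood at 0.233, 0.155 and 0.345 FPKM in CON-1, CON-5 and CON-6, at 9.61 to 26.2 in the other CON libraries and at 10.8 to 74.4 in ETEC. CON-1 is fitted by CON-5 and CON-6, so the 3 libraries near 0 are not independent. For SDSL the groups overlapped in CON-3, CON-4, CON-7 and CON-8. Its log2 fold change of 1.99 had an edgeR adjusted p of 0.0381 over 16 libraries and 0.236 over 9, which rose over 15 libraries to 0.0598 without CON-2, 0.0533 without CON-3, 0.0620 without ETEC-3, 0.0598 without ETEC-6, 0.0604 without ETEC-8, and was 0.0540 over 16 with TMM scaling. Among xenobiotic and export genes 2 rose, 2 fell and 1 did not pass: NQO1, a quinone reductase induced by electrophiles, rose by 0.97, and FMO1, a flavin monooxygenase, fell by 1.29 (edgeR adjusted p = 0.00224 and 0.000442 over 16 libraries, 0.160 and 0.133 over 9). FMO1 was at 1.46 to 4.70 FPKM in CON and 1.01 to 1.51 in ETEC, and CON-8 was the CON library inside the ETEC range.

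PAPPA2 was the single gene with a symbol that passed the edgeR test both over 16 and over 9 libraries. Other methods were less strict over the 9. There, 19 of 42 named genes and loci with a value stayed below the threshold in DESeq2 and 6 of 45 in limma voom. PAPPA2 cleaves insulin-like growth factor binding proteins and so frees the growth factor (ENSBGRG00000005766; chromosome 14, 56672622 to 56970223). It stood at 0.724, 0.492, 0.520, 0.377, 0.468, 0.766, 0.502 and 0.158 FPKM in CON-1 to CON-8 and at 2.77, 2.17, 2.38, 1.71, 2.57, 2.87, 2.33 and 1.57 in ETEC-1 to ETEC-8. All ETEC libraries lay above all CON libraries, ETEC-8 being the lowest of them. The log2 fold change was 2.19 ± 0.28 (SE) over 16 libraries (edgeR adjusted p = 2.26e-05) and 2.36 over 9 (0.0358). GDF15, a stress-responsive member of the TGF-beta family, rose by 0.81, with ETEC-7 highest at 6.36 FPKM, and EREG, a ligand of the EGF receptor, did not pass. For GDF15 the adjusted p was 0.0190 in edgeR over 16 libraries, 0.148 over 9 and 0.203 in limma voom.

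REC8, a cohesin subunit known from meiosis, also separated the groups. It ranged from 2.39 to 6.21 FPKM in CON (median 4.57) and from 11.6 to 16.5 in ETEC (median 12.8), and ETEC-8, without Y counts, was at 11.6. The log2 fold change was 1.63 ± 0.24 (SE; edgeR adjusted p = 8.46e-05 over 16 libraries, 0.0976 over 9). Of the other listed germline genes ASZ1 rose, TDRD1 fell and STK31 did not pass. For TDRD1 the adjusted p was 0.0131 with relative depth and 0.0741 with TMM scaling. For ASZ1 it was 0.0219 in edgeR over all 16 libraries, 0.0655 without ETEC-7 and 0.144 in limma voom.

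**Figure D3:**
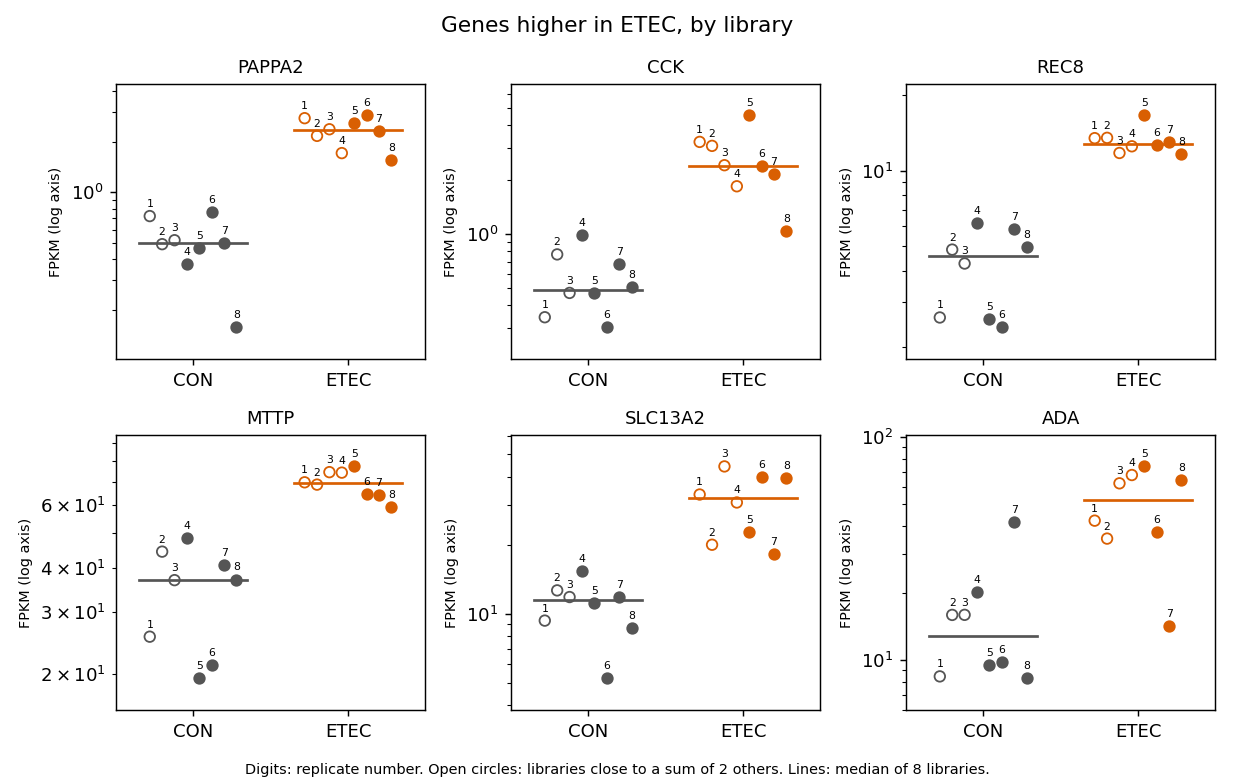
FPKM by library on log axes for 6 genes higher in ETEC, with CON in grey and ETEC in orange. Lines mark medians of 8 libraries. PAPPA2, CCK, REC8, MTTP and SLC13A2 show no overlap between groups, while ADA overlaps through CON-7 and ETEC-7.

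The few listed genes of innate defence fell where they were tested, beside 48.9% of all tested genes. Of 40 innate sensing genes 1 was listed, and of 34 antimicrobial and host defence genes 3 were listed and 2 tested. Both loci matched to DMBT1, which were not counted in these lists, rose. TLR5, the receptor for bacterial flagellin, stood at 6.09, 3.35, 4.96, 3.40, 5.65, 5.82, 3.02 and 4.09 FPKM in CON-1 to CON-8 and at 1.79, 1.85, 2.20, 2.18, 1.85, 1.84, 1.84 and 2.86 in ETEC-1 to ETEC-8. The groups did not overlap, and ETEC-8 was nearest to CON (log2 fold change -1.15 ± 0.22 (SE), edgeR adjusted p = 0.000544 over 16 libraries, 0.133 over 9). LTF, the iron-binding lactoferrin of neutrophils and secretions, was below 2 FPKM in all libraries and did not overlap either, at 0.508 to 1.89 FPKM in CON and 0.0896 to 0.491 in ETEC. NOS2, the inducible nitric oxide synthase, was at 0.364 to 9.55 FPKM in CON (median 1.80) and 0.493 to 0.907 in ETEC (median 0.574), with CON-6 below and CON-7 within the ETEC range (log2 fold change -2.32, edgeR adjusted p = 0.00141 over 16 libraries, 0.133 over 9).

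The eotaxin chemokines CCL24 and CCL26, which attract eosinophils, and their receptor CCR3 all fell, beside 48.9% of all tested genes. CCL24 was at 1.36 to 52.2 FPKM in CON (median 17.7) and 1.59 to 3.27 in ETEC (median 2.40), and CCL26 at 3.21 to 75.4 (median 34.2) and 1.83 to 6.21 (median 4.13). For both, CON-4, CON-7 and CON-8 were at ETEC levels or below, and the other 5 CON libraries were at 15.2 FPKM or more. Each had a log2 fold change of -3.11, with edgeR adjusted p of 0.000794 and 0.000831 over 16 libraries and 0.133 over 9. CCR3 was at 2.50 to 9.80 FPKM in CON and 0.824 to 3.73 in ETEC (log2 fold change -1.16, edgeR adjusted p = 0.0127 over 16 libraries, 0.209 over 9 and 0.0827 with TMM scaling), and it is the 1 listed member of 20 eosinophil, mast cell and basophil markers.

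All 4 listed neutrophil markers fell, beside 48.9% of all tested genes, and they are 4 of a list of 21. MMP9, the gelatinase of neutrophil granules, was at 24.3 to 74.4 FPKM in CON and 7.79 to 33.3 in ETEC, with CON-4 and CON-8 in the ETEC range (log2 fold change -1.09). Its edgeR adjusted p was 0.00898 over 16 libraries, 0.181 over 9 and 0.0718 with TMM scaling. MPO, the peroxidase of the same granules, and LTF fell by 1.49 and 1.57.

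Of 4 listed T and natural killer cell markers, 3 fell, 2 of them also with TMM scaling, and KLRF2 did not pass the filter on low counts. Falls made up 48.9% of all tested genes. KLRF2, a lectin-like receptor of natural killer cells, went the other way in part of ETEC. It had 79 counts in ETEC-3, 72 in ETEC-6, 41 in ETEC-1 and at most 4 in every other library. ETEC-1 and ETEC-3 are each fitted in part by ETEC-6, so these high libraries are not independent. Without the filter KLRF2 had a log2 fold change of 3.80 (edgeR adjusted p = 0.00983). GZMA, granzyme A, was at 16.9 to 90.5 FPKM in CON (median 32.1) and 12.2 to 20.4 in ETEC (median 18.3). Granzyme A in CON-4, CON-7 and CON-8, at 16.9 to 18.0 FPKM, lay within the ETEC range (log2 fold change -1.15, edgeR adjusted p = 0.00667 over 16 libraries, 0.167 over 9). GZMM, granzyme M, was at 3.92 to 9.06 FPKM in CON and 1.88 to 4.17 in ETEC, with CON-7 inside the ETEC range (-1.12, edgeR adjusted p = 0.00152 over 16 libraries, 0.161 over 9), and KLRF1 fell by 0.50 (0.0347 over 16 libraries, 0.275 over 9, and 0.518 with TMM scaling). Of single listed members of other cell lists, NEFM, a neurofilament of enteric neurons, fell by 1.06 and TREM2, a receptor of macrophages, rose by 0.81 (edgeR adjusted p = 0.00408 and 0.00631 over 16 libraries, 0.183 and 0.172 over 9).

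Loci without a symbol were grouped by the protein match in the authors' table, after their values had been seen. Of 8 loci matched to natural killer lectin or immunoglobulin-like receptors, 6 fell and 2 did not pass, where 81.3% of all tested genes passed and 48.9% fell. With TMM scaling 1 of those 2, the locus matched to NK2C on chromosome 9, was called higher (adjusted p = 0.0272), and 1 of the 6, matched to YE1/48, was lost in limma voom (0.173) and with the pretreated libraries in the fit (0.0695). Of the 8, 6 lie on chromosome 5 between 2275335 and 2657891. The locus matched to killer cell lectin-like receptor 5 (ENSBGRG00000021021) was at 4.97 to 38.1 FPKM in CON (median 7.56) and 1.32 to 3.43 in ETEC (median 1.96). A locus matched to CD94 (ENSBGRG00000020643) was at 13.2 to 24.5 FPKM in CON and 4.01 to 8.88 in ETEC. Neither overlapped between groups, and CON-4, CON-7 and CON-8 lay above ETEC here, unlike at the transport genes. Their log2 fold changes were -2.71 ± 0.47 and -1.29 ± 0.24 (SE), with edgeR adjusted p of 0.000357 and 0.000544 over 16 libraries and of 0.104 and 0.118 over 9. Receptors of this family have near-identical copies, and how shared reads were counted is not given in the sources used here.

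Both loci matched to MHC class I, which presents peptides to T cells, fell without overlap. Of all tested genes 48.9% fell, and of all 639 listed genes 33 (5.16%) had all ETEC libraries below all CON libraries. This pair was grouped by protein match after its values were seen. The first (ENSBGRG00000022538; chromosome 24, 6525098 to 6531914) stood at 86.2 to 110 FPKM in CON (median 97.8) and 28.0 to 43.2 in ETEC (median 37.1). The log2 fold change was -1.41 ± 0.17 (SE), with edgeR adjusted p of 9.64e-06 over 16 libraries and 0.0506 over 9. The second was at 21.8 to 35.02 and 7.97 to 16.6 FPKM. A locus matched to ubiquitin D, an inducible ubiquitin-like modifier (ENSBGRG00000018510), also fell without overlap, from 67.7 to 394 FPKM in CON to 39.2 to 61.0 in ETEC (log2 fold change -1.80). MHC class I genes too have near-identical copies.

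Immunoglobulin loci moved in both directions. IGHM, the gene for the IgM heavy chain, did not pass, at 1253 to 5129 FPKM in CON and 1782 to 4066 in ETEC (log2 fold change -0.09, edgeR adjusted p = 0.796). A separate locus matched to IgM, at a lower level, rose from 104 to 313 FPKM in CON (median 203) to between 222 and 870 in ETEC (median 760), and ETEC-8 at 222 was the single ETEC library inside the CON range (log2 fold change 1.65, edgeR adjusted p = 0.000442 over 16 libraries, 0.122 over 9). A locus matched to the IgA constant region stood at 1607, 2681, 2321, 2914, 2079, 1949, 2443 and 2946 FPKM in CON-1 to CON-8. In ETEC-1 to ETEC-8 it stood at 50.6, 44.9, 846, 1671, 44.2, 43.3, 51.6 and 4038 FPKM. ETEC-8 was thus above every CON library, ETEC-3 and ETEC-4, which are fitted with it, lay between, and the other 5 ETEC libraries were all below 52 FPKM. The locus did not pass the test (log2 fold change -1.48 ± 0.89 (SE), edgeR adjusted p = 0.131), and the 5 low libraries are among those with Y counts. Of 6 immunoglobulin loci in all, 3 rose, 1 fell and 2 did not pass.

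**Figure D4:**
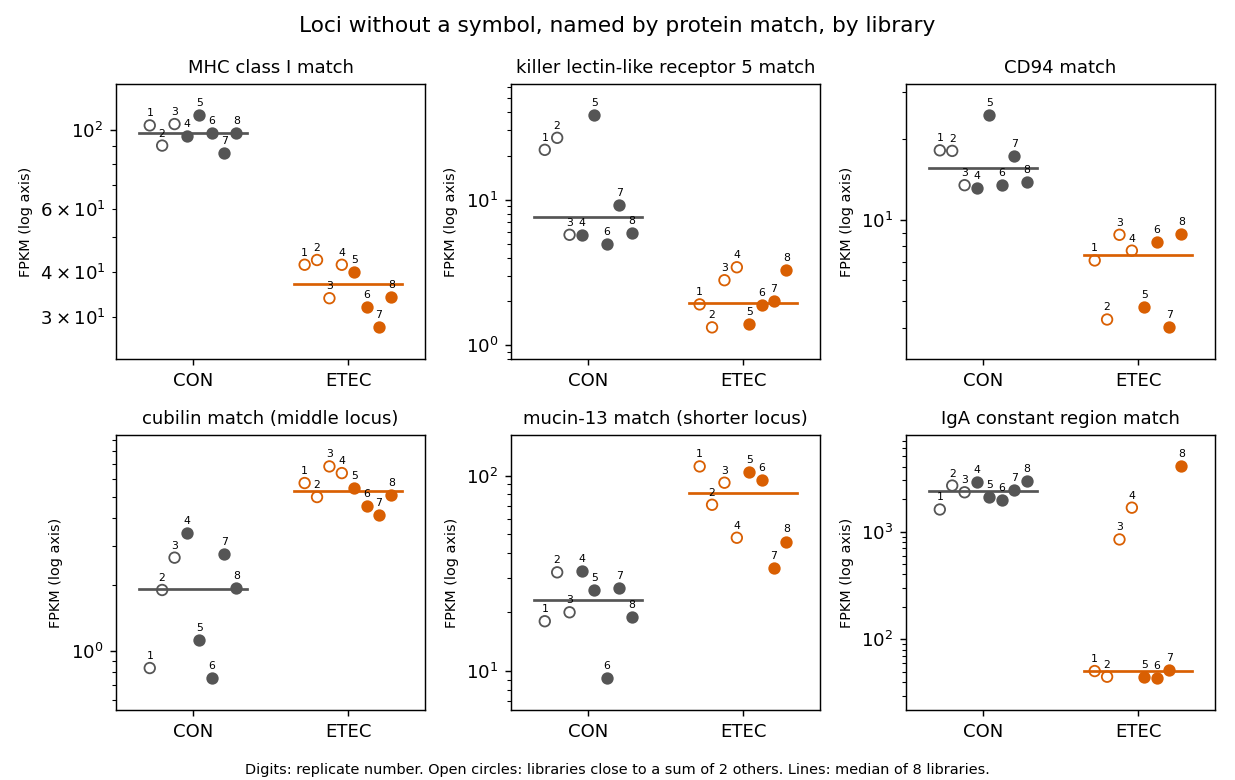
FPKM by library on log axes for 6 loci without a symbol, named by their protein match in the authors' table, with CON in grey and ETEC in orange. The first 5 loci show no overlap between groups. The IgA constant region match was at 43.3 to 51.6 FPKM in 5 ETEC libraries and at 846 FPKM or more in ETEC-3, ETEC-4 and ETEC-8.

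Plasma protein genes typical of liver fell for the most part, and 4 of the 7 falls were lost without CON-4. Of 12 listed, 7 fell, 1 rose, 1 did not pass the test and 3 did not pass the filter on low counts. Of all tested genes, 81.3% passed and 48.9% fell. With TMM scaling 6 of the 12 fell, without HPX (edgeR adjusted p = 0.0514). FGB, the fibrinogen beta chain, was at 40.0 FPKM in CON-4, 20.0 in CON-3, which is fitted with CON-4, 8.62 in CON-2 and at most 2.86 in the other 5 CON libraries, against 0.136 to 4.18 in ETEC. Its log2 fold change was -2.96 (edgeR adjusted p = 0.0120 over 16 libraries, 0.235 over 9) and -2.04 without CON-4, and its direction turned in CON-5 to CON-8 against ETEC-5 to ETEC-8 (adjusted p = 0.319). Without CON-4 the adjusted p was 0.0524 for ALB, 0.0922 for FGG, 0.112 for HPX and 0.0753 for AMBP, and HPX was at 0.0531 without CON-3. PROZ, a vitamin K-dependent plasma protein, rose by 2.08, from a median of 0.680 to 2.74 FPKM (edgeR adjusted p = 0.00157 over 16 libraries, 0.136 over 9), and ETEC-8 at 0.515 FPKM was the ETEC library inside the CON range.

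Outside the Y chromosome, 11 loci were at 0 counts in all 8 CON libraries, and 4 of these had at least 10 counts in all 8 ETEC libraries, ETEC-8 included. The locus with the highest level of these, without a symbol on chromosome 5 (90339417 to 90339666), was at 6.66 to 26.3 FPKM in ETEC. Taking 3 counts in each CON library as the floor, a limit that reflects counting error alone, its mean of 15.8 FPKM was at least 35.8-fold higher than in CON. In the reverse direction, 2 loci were at 0 counts in all ETEC libraries, and neither reached 10 counts in all CON libraries. A locus on chromosome 7 (87574860 to 87575101) was lower in ETEC, though not at 0 in all its libraries. It stood at 3.33 to 7.15 FPKM in CON and 0 to 0.608 in ETEC (log2 fold change -4.62, edgeR adjusted p = 5.04e-06 over 16 libraries, 0.0186 over 9). It is the 1 locus that passed over 9 libraries in the lower direction. Of the 10 that passed in the higher direction, 9 have no symbol. Among loci without a symbol that passed the filter on low counts and averaged 1 FPKM or more, the largest fall was on chromosome 29 (9043525 to 9045548) and matched to the peptidase NAALADL1, at 1.82 to 529 FPKM in CON and 1.37 to 2.35 in ETEC, with CON-4, CON-7 and CON-8 within the ETEC range. Neighbouring loci with the same match, which did not pass that filter, had log2 fold changes of -9.78 and -9.01 without it.

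**Figure D5:**
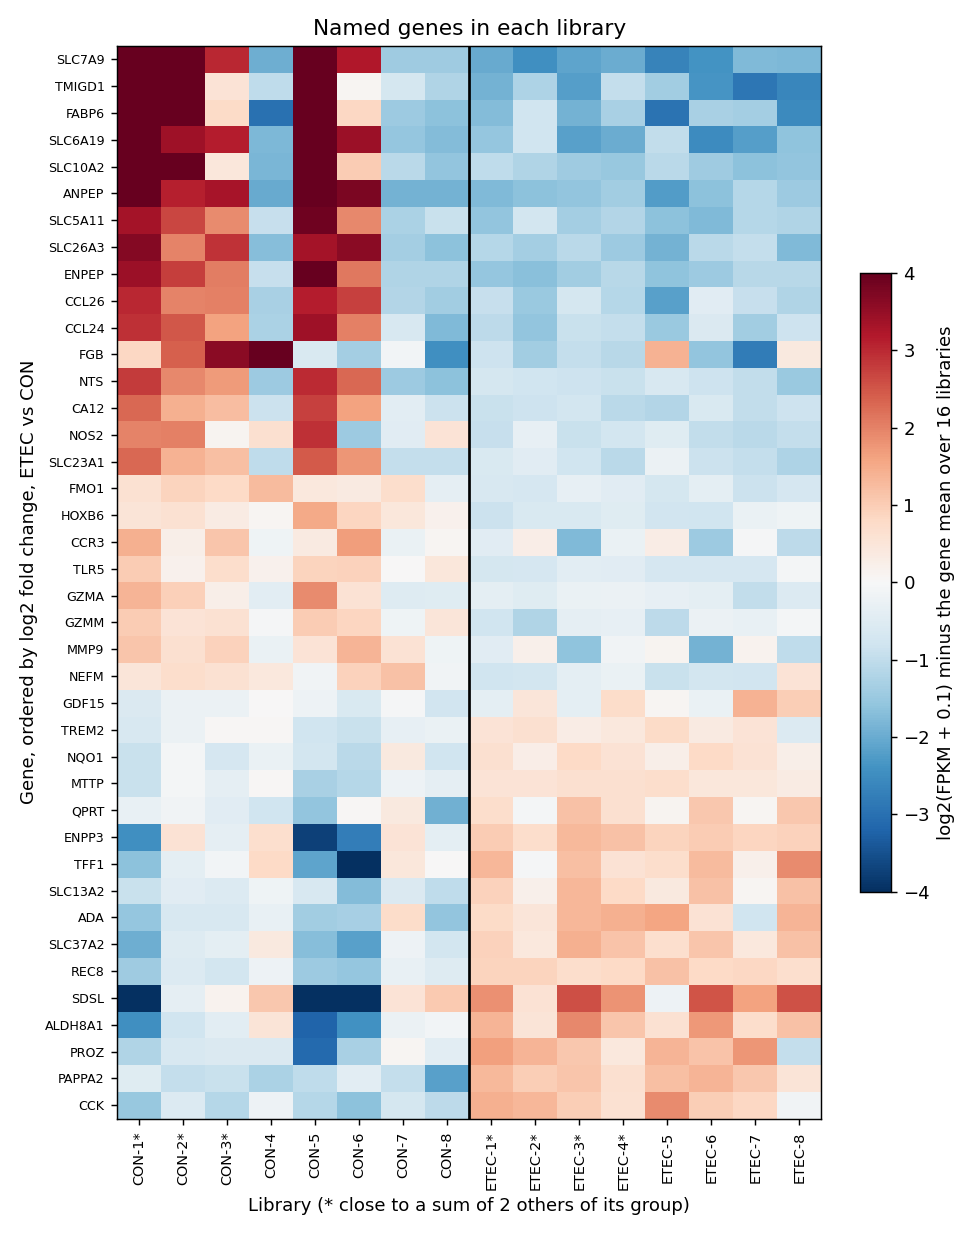
Log2(FPKM + 0.1) of 40 named genes with a symbol, minus each gene's mean over the 16 libraries, with libraries in columns and genes ordered by log2 fold change. Asterisks mark libraries close to a sum of 2 others. CON-1, CON-2, CON-3, CON-5 and CON-6 are high for most genes at the top, while the lower rows separate CON from ETEC more evenly.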

How the data were processed

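Groups came from the titles of 8 CON and 8 ETEC libraries of jejunal tissue. TRIzol extraction is stated per the labels' protocols, whose library text speaks of small-RNA enrichment, although the table is at gene level. The sources used here give no aligner, counting tool, strand setting, build or annotation. Per the file headers, the authors gave whole-number read counts and FPKM (scaled for gene length and mapped fragments) per gene and library. The authors' deposited log2 fold changes with their p-value and adjusted p-value were used for a comparison of calls, and those calls equal an adjusted p below 0.05 with at least a 2-fold change. All 639 listed genes were called by the authors in some comparison; 240 carry a symbol, and 0 identifiers matched the reference names, so names, coordinates and protein matches are the table's.

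Relative depth per library was the median of count divided by FPKM, taken where a gene had 20 counts or more, and served as the library size. The counts entered edgeR 4.0.16 under R 4.3.3 (robust quasi-likelihood test, filterByExpr, 16 libraries, Benjamini-Hochberg over 507 genes, threshold 0.05). The filter on low counts left 132 genes untested, some of them high in only part of a group. Without the filter, 57 of these were called higher and 68 lower. The method was tested on simulated data. The simulated libraries were independent of each other, so the effect of libraries close to sums or of genes chosen beforehand was not tested. Each library was fitted by every pair of others of its group on FPKM of 510 genes, and one with a residual under 0.8 of the best single fit was called close to a sum. No pair of libraries agreed within sampling noise. Alternatives used TMM, DESeq2 1.42.0, limma 3.58.1, other filters and samples. Replicate numbers did not pair the groups.

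Named genes, from those called, bearing a symbol and averaging 1 FPKM or more in either group, were the 8 largest rises and falls, up to 2 called members per list by smallest adjusted p, and the 2 largest rises and falls without a symbol; others named are list members or were chosen after their values were seen. Members and lists were chosen with earlier results of these data known. Of 38 lists, 30 had a listed member, in all 96 of 1184 genes. The lists for general epithelial, tuft and M cell, smooth muscle and stromal, endothelial, red cell and platelet, pancreatic, heat shock and immediate early genes had none. Results for some of these genes are not reported here.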

Additional observations from a re-analysis of the deposited data

Results flagged for a closer look

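Among the named genes and loci reported here, 9 values stood further from the other 7 libraries of their group than Dixon's limit for 8 samples allows. The check covered 96 combinations of a named gene or locus with a group. With independent, normally spread values chance flags about 1 in 20 groups. That rate need not hold for FPKM of libraries of which some lie close to sums of others. In CON, CON-5 was the highest library for TMIGD1 (76.3 FPKM), SLC10A2 (83.0) and HOXB6 (16.1), and CON-7 for ADA (41.5). In ETEC, ETEC-8 was the lowest for NTS (3.79 FPKM) and the highest for TLR5 (2.86) and NEFM (2.29), and ETEC-5 was the highest for REC8 (16.5) and FGB (4.18). ETEC-8 is the ETEC library without Y-linked counts. At TLR5 and NEFM all 8 CON libraries lay above the other 7 ETEC libraries, and ETEC-8 stood on the side of CON. At NTS ETEC-8 stood on the side of CON-4, CON-7 and CON-8, away from the other CON libraries. The part of this in the results was not tested.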

How the results depend on the processing

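Over 16 libraries, 412 genes were called and leaving out 1 library gave 407 to 436, with 158 to 183 higher (164 with all) and 238 to 258 lower (248 with all); the count of genes without overlap went from 72 to between 72 and 93. Over the 9 other libraries, those that no 2 libraries fitted, 11 genes passed (10 higher, 1 lower), DESeq2 called 86 (30 and 56), limma voom 47 (18 and 29) and TMM 12 (11 and 1), and CON-5 to CON-8 against ETEC-5 to ETEC-8 gave 7 (6 and 1); there are fewer libraries in these fits. Of these, DESeq2, limma voom and TMM over 9 libraries and the fit of 4 against 4 were added after seeing the data. NTS reversed in limma voom over 9 libraries (adjusted p = 0.80) and FGB in 4 against 4 (0.319); the cause was not tested. TMM gave 364 calls over 16 libraries, DESeq2 size factors 367, DESeq2 427, limma voom 401, no filter 532 and all 3 groups 406. The replicate numbers did not pair the groups (correlations of -0.159 to 0.1), and with the replicate block 321 genes were called. Of 48 named genes and loci, 44 stayed below the threshold with TMM, 45 with limma voom, 48 with DESeq2, 39 with all 3 groups and 42 with the block.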
